A study of Mus musculus with 46 samples.

Results

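Lungs of Nrf2 mutant mice that had breathed 100% oxygen for 72 h were compared with lungs of wild type mice given the same 100% oxygen for 72 h. The arrays were chosen by their titles, OxMut72h for the mutant and Ox72h for the wild type, and they made up 12 of the 46 arrays in the series. Each genotype had 2 arrays, numbered 1a and 1b, on each of 3 array types called A, B and C, which carry different genes. The rest of the series holds mutant and wild type lungs at 0, 24 and 48 h of oxygen on the same array types. The labels do not give the nature of the Nrf2 mutation, nor the strain, sex or age of the mice. Nor do they state if 1a and 1b came from different animals, so the p-values here measure only the spread between these samples, which may be technical.

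NRF2, the product of Nfe2l2, is a transcription factor that KEAP1 holds back in unstressed cells by sending it for degradation. Oxidants and electrophiles free it, and it then pairs with small MAF proteins on antioxidant response elements near genes for glutathione synthesis, conjugation of electrophiles, thiol reduction, quinone and carbonyl reduction, NADPH supply and iron handling. High oxygen injures the endothelium and epithelium of the lung, brings in neutrophils and leaks protein-rich fluid into the airspaces, and NRF2 is known as a protective factor in this injury in mice.

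The 12 arrays were of like brightness, with trimmed mean intensities between 790 and 798. Replicates of a 72 h group correlated at 0.959 to 0.962 on type A, 0.947 to 0.948 on type B and 0.906 to 0.914 on type C (Pearson's r over tested probe sets), whereas a 72 h array correlated on average with those of the other genotype at 0.943 to 0.957, 0.931 to 0.942 and 0.893 to 0.911. The ratio of 3′ to 5′ Gapdh probe sets, a sign of RNA integrity, lay between 0.927 and 1.27 in mutant lungs and between 0.858 and 1.13 in wild type lungs at 72 h. The same ratio for beta-actin lay between 0.149 and 1.01 in mutant lungs and between 0.280 and 0.906 in wild type lungs. The mutant 0 h arrays stood apart, with Gapdh ratios of 1.67 to 2.26. Lung markers were bright in both genotypes: Sftpc, the surfactant protein of alveolar type 2 cells, had intensities of 21040 and 18620 in mutant lungs, against 12520 and 15490 in wild type lungs, and Scgb1a1, the secretory protein of club cells, had 29200 and 23790 in mutant lungs, against 18230 and 22630 in wild type lungs.

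Of 26821 probe sets tested, 220 differed between mutant and wild type lungs at 72 h (0.82%), 95 higher in the mutant (0.354%) and 125 lower (0.466%). They belonged to 76 named genes that were higher and 98 that were lower. A difference was called at an adjusted p under 0.05, from a limma model of log2 intensities with Benjamini-Hochberg adjustment over all 26821 probe sets. Every called probe set had mutant and wild type arrays that did not overlap. This adds no support to a call, since with 2 arrays a side many uncalled probe sets did not overlap either, such as those of Gsta3 and Cdkn1a below. Of the 220, 75 were more than 2-fold higher and 105 more than 2-fold lower, and 32 passed 4-fold, 22 of them lower. The median log2 difference over all tested genes was -0.01. Leaving out 1 of the 4 arrays of a type at a time, 54 of the 220 kept their call in each of the 4 fits (15 higher, 39 lower), and 27 kept it in a fit on the 72 h arrays alone. For the genes described below, the calls lost when an array was left out are given with the highest adjusted p of the 4 fits. Counts of list members below use the tested probe set of each gene with the highest mean log2 intensity over all arrays of its type, called its brightest, by which 0.425% of all genes tested were called higher and 0.567% lower.

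**Figure D1:**
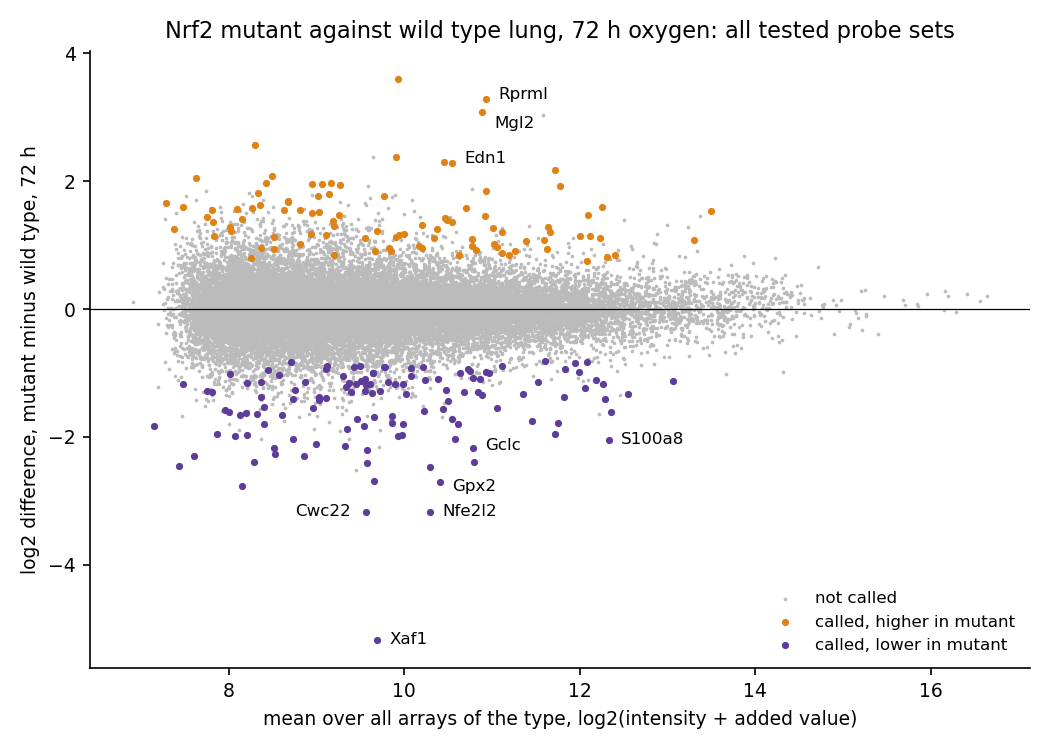
Log2 difference between mutant and wild type lungs at 72 h of oxygen (vertical axis) against the mean log2 intensity over all arrays of the type (horizontal axis), 1 point for each of the 26821 tested probe sets. The 95 called higher and 125 called lower are coloured; Xaf1 lies lowest at -5.17, a probe set with several gene symbols highest at 3.60, and Rprml next at 3.29.

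Nfe2l2 itself was far lower in the mutant. Its probe set on type A read 376 and 318 in mutant lungs, against 3319 and 4231 in wild type lungs, a log2 difference of -3.17 ± 0.21 (SE), or 9.01-fold lower (limma adjusted p = 8.08e-05, n = 2 each). The mutant was also lower at 0, 24 and 48 h, by log2 differences of -2.31, -3.00 and -3.06. Nfe2l2 lies at chr2:75675513-75704663 (GRCm38.p6). Whether its probe set lies in the altered stretch of the gene is not given in the sources used here. Of the 9 measured genes in a list of NRF2 pathway regulators, Nfe2l2 was the only one called. The small MAF genes Mafg and Maff gave log2 differences of -0.65 (limma adjusted p = 0.102) and 0.65 (limma adjusted p = 0.281), and neither passed the test, though Mafg did under 1 alternative setting.

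Of 8 measured genes for the enzymes that build glutathione and the transporter that brings in its cysteine 3 fell and none rose. All 8 had a negative difference, with a median of -0.56. Gclc, the catalytic subunit of glutamate-cysteine ligase, which carries out the rate-limiting step, read 1237 and 1021 in mutant lungs, against 4688 and 6032 in wild type lungs (4.49-fold lower, log2 difference -2.17 ± 0.19, limma adjusted p = 0.000548). Slc7a11, the cystine importer, read 197 and 275 in mutant lungs, against 1646 and 1642 in wild type lungs (4.91-fold lower, -2.30 ± 0.21, limma adjusted p = 0.000232). Both genes kept their call without any one of the 72 h arrays, and a second Gclc probe set was called at -1.99 (limma adjusted p = 0.0351), a call lost without each of them. Gclm, the modifier subunit of the ligase, read 643 and 632 in mutant lungs, against 1859 and 2630 in wild type lungs (3.20-fold lower, -1.68 ± 0.28, limma adjusted p = 0.0225). Its call was lost when any of the 4 arrays was left out (highest adjusted p = 0.195), and of its 2 other probe sets 1 was called at -1.14 and 1 was not, at -0.31. The remaining members were not called. Gsr, which reduces oxidised glutathione, gave -0.62 (limma adjusted p = 0.303).

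**Figure D2:**
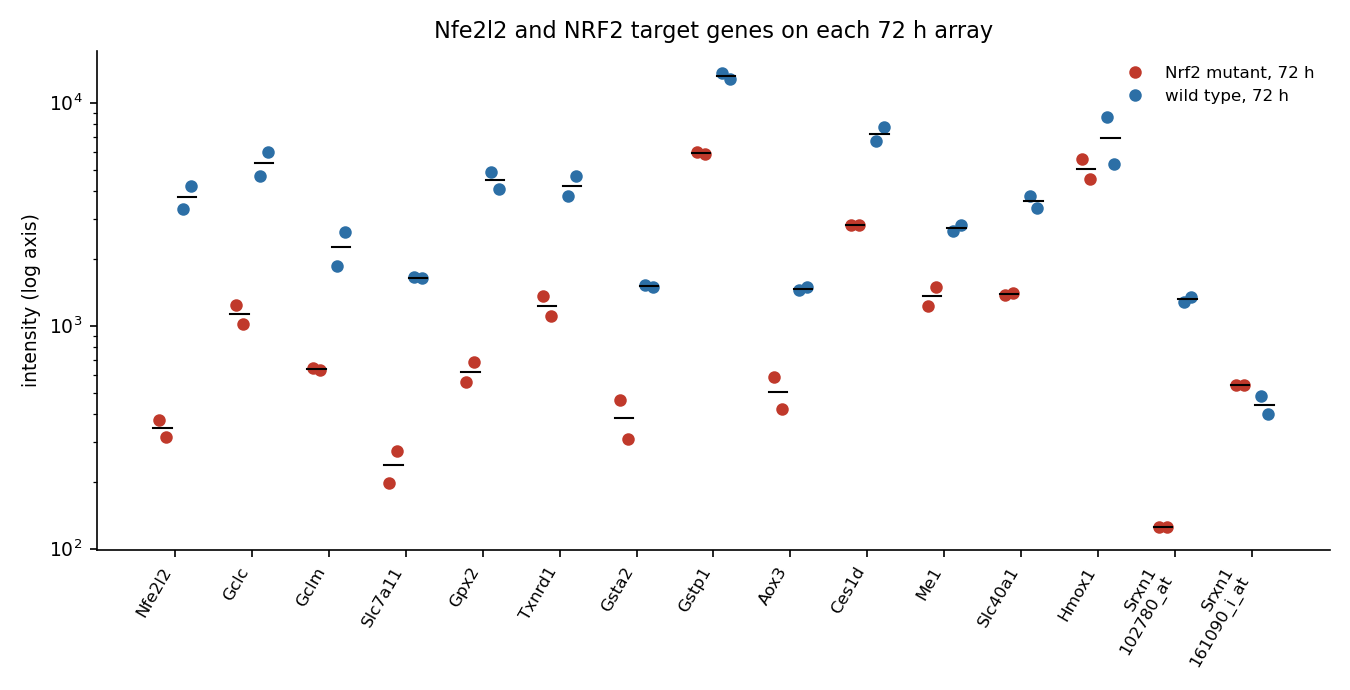
Intensity (log axis) of Nfe2l2 and of NRF2 target genes on each 72 h array, 2 mutant points (left, red) and 2 wild type points (right, blue) for each gene, with black bars at the group means. The groups do not overlap for any gene shown before Hmox1, whose mutant arrays of 5592 and 4541 overlap the wild type arrays of 8586 and 5329, and the 2 Srxn1 probe sets differ in direction.

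The antioxidant response element was looked for, as the letters TGACNNNGC on either strand, in the RefSeq promoters of the NRF2 target lists (GRCm38.p6, 250 bases before to 50 after a start). Of 21 called lower genes in these 7 lists, 16 had a promoter in the table, and 3 of the 16 held the letters (18.8%). The share was 19.4% of all 93 measured list genes with a promoter, 18.4% of all called lower genes, 18.5% of all called higher genes and 16.6% of all genes tested, so it differed little between the sets, and 12.4% of all windows of this length in the table held the letters. The 3 that did are shown with the match in capitals. Txnrd1 and Gclm carry the match on the strand opposite to the gene, so it reads as the reverse complement, at 92 to 84 and at 134 to 126 bases before the start, in 250 bases that end at the start (chr10:82858956-82859205, + strand, and chr3:122245307-122245556, + strand). Txnrd1 has 3 windows in the table and Me1 has 2, and 1 of each held the letters. Me1 carries the match across the start, shown in 29 bases (chr9:86695902-86695930, - strand).
Txnrd1: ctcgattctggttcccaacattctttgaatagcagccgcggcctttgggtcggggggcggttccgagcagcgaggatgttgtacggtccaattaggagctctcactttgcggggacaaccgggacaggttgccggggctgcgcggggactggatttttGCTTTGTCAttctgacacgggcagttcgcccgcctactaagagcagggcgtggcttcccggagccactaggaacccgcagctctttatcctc
Gclm: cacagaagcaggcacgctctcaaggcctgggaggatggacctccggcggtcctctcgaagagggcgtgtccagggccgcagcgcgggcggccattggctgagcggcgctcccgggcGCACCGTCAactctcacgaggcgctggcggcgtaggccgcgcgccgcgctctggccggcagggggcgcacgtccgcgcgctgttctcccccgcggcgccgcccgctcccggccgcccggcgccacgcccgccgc
Me1: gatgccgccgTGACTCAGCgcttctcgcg

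Of 19 measured glutathione transferases, which join glutathione to electrophiles, 4 fell and none rose. The list's median was -0.67 and 17 of its 19 differences were negative, against a median of -0.01 over all genes. Gsta2, an alpha class enzyme, read 463 and 309 in mutant lungs, against 1516 and 1489 in wild type lungs (3.45-fold lower, -1.79 ± 0.19, limma adjusted p = 0.00206). Gsta4, which handles the lipid peroxidation product 4-hydroxynonenal, read 233 and 246 in mutant lungs, against 1051 and 898 in wild type lungs (3.30-fold lower, -1.72 ± 0.20, limma adjusted p = 0.00354). Gstp1, the pi class enzyme, read 6009 and 5907 in mutant lungs, against 13520 and 12730 in wild type lungs (2.19-fold lower, -1.13 ± 0.15, limma adjusted p = 0.00571). Gsto1, an omega class enzyme, read 2523 and 2502 in mutant lungs, against 4791 and 4160 in wild type lungs (1.75-fold lower, -0.81 ± 0.15, limma adjusted p = 0.0433). Gsta2 and Gsta4 kept their calls without any one array, Gstp1 lost its call without mutant 1b or wild type 1a (highest adjusted p = 0.0573) and Gsto1 without any of the 4 (0.225). Gsta3 read 406 and 398 in mutant lungs, against 938 and 1209 in wild type lungs, without overlap, but did not pass the test (-1.25 ± 0.31, limma adjusted p = 0.127). Transferases are close paralogs, and signal on these older probe sets can be shared between them.

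Among peroxidases, thioredoxin, peroxiredoxins and superoxide dismutases the difference lay in a few genes. 3 of 22 measured members fell, none rose, and the median was 0.00. Gpx2, the epithelial glutathione peroxidase, read 558 and 686 in mutant lungs, against 4900 and 4085 in wild type lungs (6.53-fold lower, -2.71 ± 0.18, limma adjusted p = 8.08e-05). Txnrd1, the cytosolic reductase of thioredoxin, read 1359 and 1104 in mutant lungs, against 3800 and 4699 in wild type lungs (3.30-fold lower, -1.72 ± 0.17, limma adjusted p = 0.00159). Osgin1, an oxidative stress-induced growth inhibitor kept in this list as an NRF2 target, read 91 and 80 in mutant lungs, against 860 and 1127 in wild type lungs (-2.39 ± 0.19, limma adjusted p = 8.08e-05). The mutant values of Osgin1 lie below the filter value of type B, 273, so the size of its difference depends on the value added before log2 and no fold is given; the same holds wherever a group is said below to lie under the filter value, which was 196 on type A and 210 on type C. All 3 genes kept their calls without any one array. Cat, catalase, had a probe set called lower at -1.09 that is not counted in the list, and this call was lost without each array.

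The probe sets of Srxn1, which repairs over-oxidised peroxiredoxins, disagreed. On 1 of them the mutant lungs read 125 and 125, below the filter value, against 1283 and 1342 in wild type lungs (-2.77 ± 0.19, limma adjusted p = 8.08e-05). On the other the mutant lungs read 544 and 544, against 482 and 401 in wild type lungs (0.26, limma adjusted p = 0.680), and this one, brighter over all arrays of type A though not in wild type lungs at 72 h, is counted in the list. Sod3, the extracellular superoxide dismutase, was higher without overlap but did not pass the test (1.03, limma adjusted p = 0.0617), though it did under 4 alternative settings.

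Of 25 measured enzymes that reduce quinones, carbonyls and aldehydes 5 fell and none rose, with a median of -0.28. Nqo1, the quinone reductase often used as a readout of NRF2, was dim in mutant lungs on both of its probe sets. On the first it read 80 and 63 in mutant lungs, below the filter value, against 296 and 278 in wild type lungs (-1.28 ± 0.19, limma adjusted p = 0.0103). On the second it read 14 and 8.3 in mutant lungs, also below it, against 381 and 452 in wild type lungs (-2.46 ± 0.17, limma adjusted p = 8.08e-05). The call on the second held without any one array, while that on the first was lost without each of them (highest adjusted p = 0.0925). Both measured aldehyde oxidases fell: Aox3 read 589 and 423 in mutant lungs, against 1446 and 1487 in wild type lungs (2.54-fold lower, -1.35 ± 0.18, limma adjusted p = 0.00354), and Aox1 read 134 and 39 in mutant lungs, below the filter value, against 525 and 612 in wild type lungs (-2.03 ± 0.35, limma adjusted p = 0.0280). Akr1b8, an aldo-keto reductase, was 1.99-fold lower (-0.99, limma adjusted p = 0.0478), and Adh7, a retinol-oxidising alcohol dehydrogenase, 1.89-fold lower (-0.92, limma adjusted p = 0.0470). Aox3 kept its call without any one array, Aox1 kept it only without mutant 1a (highest adjusted p = 0.196), and Akr1b8 and Adh7 lost theirs without each of the 4 arrays (highest 0.336 and 0.244).

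Carboxylesterases, which split esters of drugs and lipids, gave 3 lower genes among 14 measured in a list that also held conjugating enzymes and Abcc export pumps. Ces1d read 2836 and 2827 in mutant lungs, against 6705 and 7771 in wild type lungs (2.51-fold lower, -1.33 ± 0.16, limma adjusted p = 0.00354), and kept its call without any one array. Of its 2 other probe sets 1 was called at -1.40 and 1 was not, at 0.14. Ces1f read 39 and 23 in mutant lungs, below the filter value, against 498 and 674 in wild type lungs (-2.17 ± 0.19, limma adjusted p = 0.000112), and also kept it. Ces1e read 226 and 383 in mutant lungs, against 639 and 678 in wild type lungs (1.85-fold lower, -0.89 ± 0.18, limma adjusted p = 0.0402), a call that held only without mutant 1b (highest adjusted p = 0.255). Ces1g was not called on its brightest probe set (-0.22), but another, dim in both genotypes and below the filter value at 72 h, was called at -1.17 (limma adjusted p = 0.0265). These genes lie in a cluster of near copies, so their probe sets may share signal. The export pumps Abcc1, Abcc2 and Abcc3 gave -0.47, -0.46 and -0.55 and were not called. None of 13 measured cytochromes P450 was called, with a median of 0.02.

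Of 8 measured enzymes that supply NADPH, the reducing power behind both glutathione and thioredoxin, 2 fell and none rose, and the median was -0.57. Me1, malic enzyme, read 1231 and 1498 in mutant lungs, against 2664 and 2821 in wild type lungs (1.96-fold lower, -0.97 ± 0.16, limma adjusted p = 0.0234). Taldo1, a transaldolase of the pentose phosphate pathway, read 1810 and 1791 in mutant lungs, against 3139 and 3669 in wild type lungs (1.85-fold lower, -0.89 ± 0.16, limma adjusted p = 0.0351). Both calls were lost without each of the 4 arrays (highest adjusted p = 0.168 for Me1 and 0.256 for Taldo1), and a second Me1 probe set gave -0.11 without a call. Tkt, the transketolase of the same pathway, gave -0.78 and was not called (limma adjusted p = 0.188).

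Of 16 measured genes of heme and iron handling 1 fell, with a list median of 0.07. Slc40a1, ferroportin, the iron exporter of macrophages and epithelium, read 1376 and 1395 in mutant lungs, against 3834 and 3386 in wild type lungs (2.47-fold lower, -1.30 ± 0.17, limma adjusted p = 0.00354), and kept its call without any one array. Hmox1, heme oxygenase 1, the textbook oxidative stress gene, read 5592 and 4541 in mutant lungs, against 8586 and 5329 in wild type lungs. The groups overlapped, and the difference of -0.42 ± 0.24 did not pass the test (limma adjusted p = 0.653). Blvrb, a biliverdin reductase, was not called on the probe set counted in the list (-1.34, limma adjusted p = 0.129). Another read 848 and 626 in mutant lungs, against 2147 and 1740 in wild type lungs, and was called at -1.27 (limma adjusted p = 0.0168). That call did not hold through every left-out array, and its remaining probe set gave 0.23 without a call.

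Counted by the brightest probe set of each gene, other stress programmes gave no call. That held for 13 metallothioneins and acute phase genes, 21 p53 targets and 26 genes of ATF4 and the unfolded protein response. It also held for 24 immediate early genes, 24 glucocorticoid-induced and clock genes, 32 proteasome subunits and 28 cell cycle genes. Medians of these lists lay between -0.10 and 0.17. Probe sets of Errfi1, Sfn and Csrnp1 that are not counted there were called, at 1.21, -1.55 and 0.85. None of these calls held through every left-out array, and the other Errfi1 probe set gave 0.67 without a call. Cdkn1a, the p53 target that arrests the cell cycle, read 7206 and 7083 in mutant lungs, against 4779 and 4311 in wild type lungs, without overlap, and did not pass the test (0.65 ± 0.20, limma adjusted p = 0.251). Mt2, a metallothionein, read 9781 and 9984 in mutant lungs, against 9791 and 12240 in wild type lungs (-0.15, limma adjusted p = 0.883).

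Heat shock genes gave 2 higher members of 20 measured, both of the inducible Hsp70 pair, while the list's median was -0.08. Hspa1a read 3969 and 3277 in mutant lungs, against 1049 and 750 in wild type lungs (3.81-fold higher, 1.93 ± 0.25, limma adjusted p = 0.00500). Hspa1b read 1789 and 2162 in mutant lungs, against 965 and 1000 in wild type lungs (1.93-fold higher, 0.95 ± 0.17, limma adjusted p = 0.0354). These genes are near copies and may share signal, and Hspa1a had a second probe set at 1.04 without a call. Hspa1a lost its call without mutant 1a or wild type 1b (highest adjusted p = 0.0622) and Hspa1b without each of the 4 arrays (0.215). Hspa1a was also higher in the mutant before oxygen, by 2.78 at 0 h, where type A has 1 mutant array and the mutant arrays stand apart.

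Of 12 measured neutrophil markers 3 fell in mutant lungs at 72 h and none rose. In whole lung RNA, fewer cells of a type and less RNA per cell cannot be told apart. The median was -0.82, and the summed intensity of the list was 8499 and 9075 in mutant lungs, against 20730 and 20600 in wild type lungs. S100a8, a calgranulin and an abundant protein of neutrophils, read 2079 and 2151 in mutant lungs, against 9256 and 8710 in wild type lungs (4.13-fold lower, -2.05 ± 0.15, limma adjusted p = 0.000112). S100a9, its partner, read 1267 and 1430 in mutant lungs, against 4275 and 5183 in wild type lungs (3.36-fold lower, -1.75 ± 0.20, limma adjusted p = 0.00338). Both kept their calls without any one array. Ngp, a neutrophil granule protein, read 94 and 59 in mutant lungs, below the filter value, against 452 and 609 in wild type lungs (-1.97, limma adjusted p = 0.0470), and lost its call without each array (highest adjusted p = 0.303). Csf3r, also in the list, was called lower on probe sets other than the one counted, at -1.18 and -1.11, and neither call held through every left-out array. The granule proteases Mmp8 and Mmp9 gave -1.29 and -0.99 and the granule protein Ltf gave 0.87, and none of these was called (limma adjusted p = 0.167, 0.235 and 0.127). Clec4d, a C-type lectin of myeloid cells, was 4.30-fold lower at 141 and 212 in mutant lungs, against 1063 and 950 in wild type lungs (-2.10 ± 0.24, limma adjusted p = 0.00305), and Cd177, a neutrophil surface protein, was 2.71-fold lower at 1016 and 1151 in mutant lungs, against 2879 and 3349 in wild type lungs (-1.44 ± 0.24, limma adjusted p = 0.0165). Clec4d kept its call without any one array and Cd177 lost it without each (highest adjusted p = 0.153).

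Of 14 measured macrophage and monocyte markers 2 fell and none rose. Their summed intensity was 48910 and 54380 in mutant lungs, against 47860 and 52310 in wild type lungs, with a median difference of 0.08. Marco, a scavenger receptor of alveolar macrophages, read 324 and 375 in mutant lungs, against 1020 and 1126 in wild type lungs (2.69-fold lower, -1.43 ± 0.17, limma adjusted p = 0.00354), and kept its call without any one array. Ccr2, the chemokine receptor of inflammatory monocytes, read 474 and 651 in mutant lungs, against 1366 and 1672 in wild type lungs (2.51-fold lower, -1.33 ± 0.19, limma adjusted p = 0.00910), a call lost without mutant 1a or wild type 1b (highest adjusted p = 0.0998). Cd68 and Adgre1, general macrophage markers, gave 0.56 and 0.46 and were not called.

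Of 32 measured cytokines, chemokines and adhesion genes 1 fell and 1 rose. Il1b, the inflammasome cytokine, read 539 and 624 in mutant lungs, against 1318 and 1491 in wild type lungs (2.25-fold lower, -1.17 ± 0.17, limma adjusted p = 0.0103), and kept its call only without mutant 1b (highest adjusted p = 0.104). Ccl8, a monocyte chemokine, read 675 and 826 in mutant lungs, against 183 and 246 in wild type lungs (2.83-fold higher, 1.50 ± 0.28, limma adjusted p = 0.0402), and lost its call without each array (0.219). Cxcl1, a neutrophil chemokine, read 1682 and 1679 in mutant lungs, against 1900 and 1816 in wild type lungs, and was not called (-0.14, limma adjusted p = 0.902). Probe sets of the chemokine Ppbp and the chemokine receptor Ccr1 that are not counted in the list were called lower, at -1.55 and -0.94. Neither of these 2 calls held through every left-out array. Il6 read 203 and 222 in mutant lungs, against 171 and 172 in wild type lungs, which lie below the filter value, and was not called (0.22, limma adjusted p = 0.862).

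MHC class II and complement genes gave 2 higher members of 20 measured, a median of 0.31 and 17 positive differences. C1qb, a chain of the first complement component, read 1803 and 1876 in mutant lungs, against 808 and 975 in wild type lungs (1.98-fold higher, 0.99 ± 0.15, limma adjusted p = 0.0123). H2-Ab1, a class II chain, read 3851 and 5127 in mutant lungs, against 1722 and 2353 in wild type lungs (2.16-fold higher, 1.11 ± 0.21, limma adjusted p = 0.0427). C1qb had a second probe set at 0.27 without a call. It kept its call on the first only without wild type 1b (highest adjusted p = 0.103) and H2-Ab1 lost it without each array (0.241). C1qa and C1qc, the other chains of C1q, gave 0.60 and 0.68 and were not called (limma adjusted p = 0.189 and 0.0633), though C1qc was under 3 alternative settings. Of 21 coagulation genes 1 fell, F13a1, the clot-stabilising factor XIII A chain made by macrophages and platelets. It read 2683 and 2689 in mutant lungs, against 10550 and 10840 in wild type lungs (3.87-fold lower, -1.95 ± 0.38, limma adjusted p = 0.0372). F13a1 lost this call without each array, while its second probe set was called at -1.17. A probe set of F7, coagulation factor VII, that is not counted was called higher at 1.56, though not through every left-out array.

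Of 37 measured extracellular matrix genes 3 rose and none fell. In all, 35 had a positive difference, and the median was 0.56, against -0.01 over all genes. Summed over the list, intensity was 176800 and 171800 in mutant lungs, against 111400 and 118600 in wild type lungs. Col1a1, the main fibrillar collagen, read 4418 and 4892 in mutant lungs, against 1772 and 1973 in wild type lungs (2.43-fold higher, 1.28 ± 0.18, limma adjusted p = 0.00705), and Col3a1, its partner in vessel walls, was 1.84-fold higher at 2531 and 3034 in mutant lungs, against 1476 and 1460 in wild type lungs (0.88 ± 0.16, limma adjusted p = 0.0392). Tnc, tenascin C, a matrix glycoprotein of wounds, read 1244 and 1164 in mutant lungs, against 285 and 398 in wild type lungs (3.08-fold higher, 1.62 ± 0.25, limma adjusted p = 0.0125). Eln, elastin, had its brightest probe set at 12270 and 8915 in mutant lungs, against 4518 and 3427 in wild type lungs, which did not pass the test (1.39, limma adjusted p = 0.0700) but did under 4 alternative settings, while its dimmer one was called at 1.58 with wild type lungs below the filter value (limma adjusted p = 0.0219). None of the 3 counted calls held through every left-out array. Col1a1 kept its call only without mutant 1a (highest adjusted p = 0.0717), Tnc only without wild type 1b (0.103), and Col3a1 under none (0.225). Other probe sets were not called for Col1a1, at 0.79, or for Col3a1, at 0.80 and 0.32. A probe set of the collagen Col18a1 that is not counted read 528 and 524 in mutant lungs. In wild type lungs it read 68 and 67, below the filter value. It was called at 2.05 (limma adjusted p = 0.00056) and kept its call without any one array. Another was called at 1.56, though not through every left-out array, while the remaining Col18a1 probe sets gave 0.69 and 0.64 without a call. Matrix proteases and their inhibitors gave no call among 21, and of 32 genes of TGF-beta signalling 1 fell, the induced matrix protein Tgfbi (1.87-fold lower, -0.91, limma adjusted p = 0.0427; highest adjusted p without an array 0.303).

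Smooth muscle contractile genes were the list with the largest share of higher calls, 4 of 10 measured, with a median of 0.62. Their summed intensity was 28670 and 31320 in mutant lungs, against 17190 and 19260 in wild type lungs. Tagln, an actin-binding protein of smooth muscle, read 8005 and 8727 in mutant lungs, against 3036 and 2901 in wild type lungs (2.77-fold higher, 1.47 ± 0.15, limma adjusted p = 0.00177). Cnn1, calponin, read 1804 and 1640 in mutant lungs, against 621 and 668 in wild type lungs (2.49-fold higher, 1.32 ± 0.15, limma adjusted p = 0.00307). Both kept their calls without any one array. Myh11, the smooth muscle myosin heavy chain, was 2.23-fold higher (1.16 ± 0.16, limma adjusted p = 0.00705), though a second probe set gave 0.31 without a call. Actg2, the enteric actin, was 1.88-fold higher (0.91 ± 0.17, limma adjusted p = 0.0418). Myh11 and Actg2 lost their calls without each of the 4 arrays (highest adjusted p = 0.0690 and 0.255), and Acta2, the vascular actin, was not called (0.74, limma adjusted p = 0.132).

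**Figure D3:**
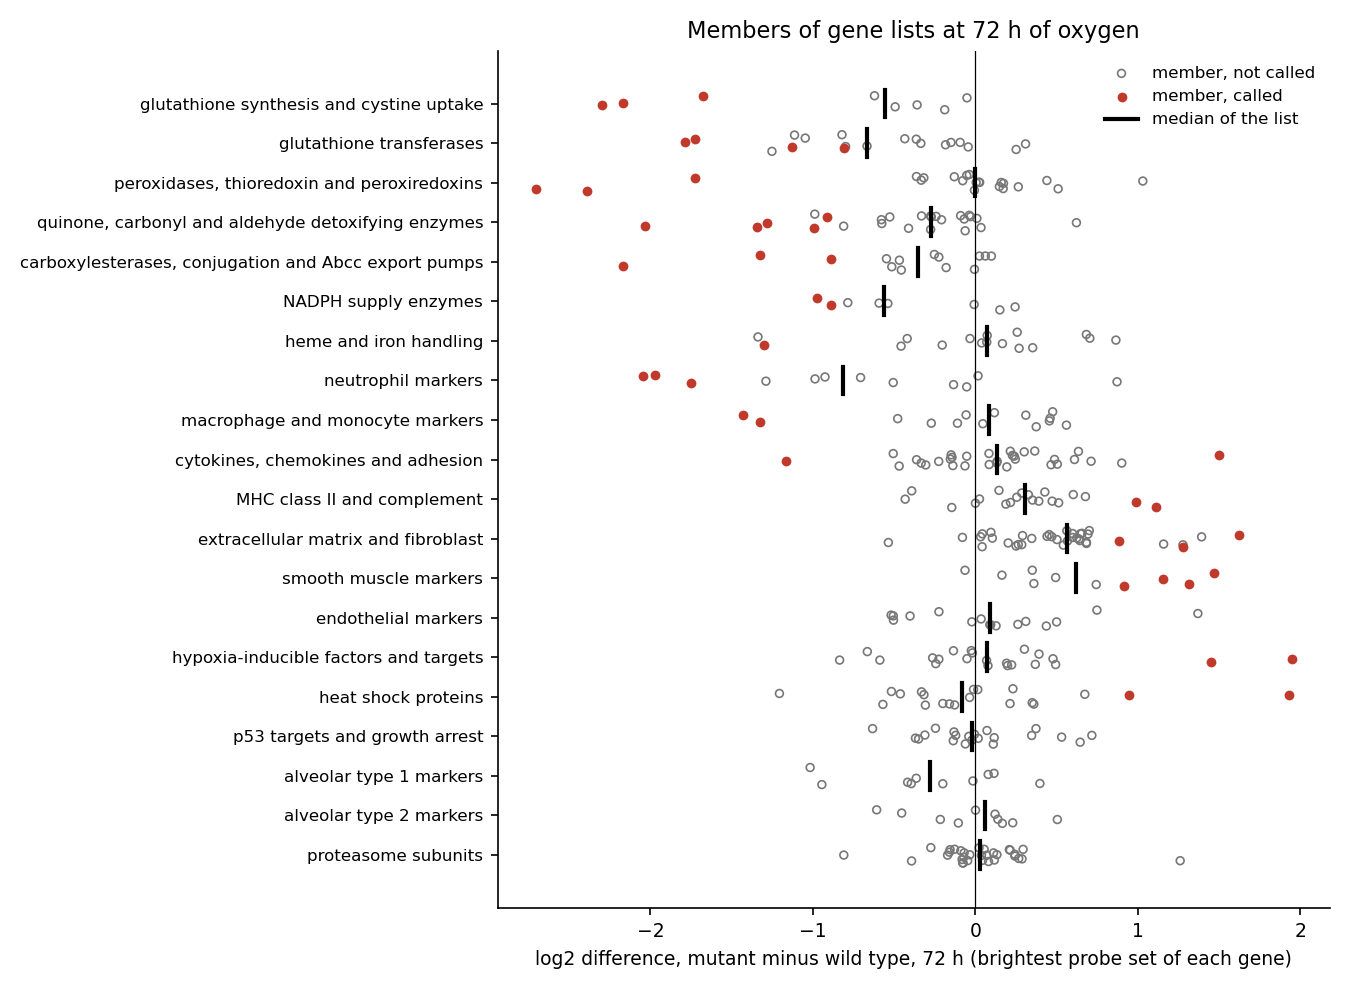
Log2 difference between mutant and wild type lungs at 72 h (horizontal axis) for the brightest tested probe set of each gene in 20 lists. Filled red points passed the test, open points did not, and black bars mark list medians, which run from -0.82 for neutrophil markers to 0.62 for smooth muscle markers.

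Edn1 and Adm, vasoactive peptides made by endothelium among other cells, and Ankrd37 rose in mutant lungs. Edn1, the vasoconstrictor endothelin 1, read 4986 and 4987 in mutant lungs, against 1801 and 1741 in wild type lungs (2.74-fold higher, 1.45 ± 0.15, limma adjusted p = 0.00183), and kept its call without any one array. Its second probe set gave 2.29 (limma adjusted p = 0.00512), a call lost without mutant 1a or wild type 1b (highest adjusted p = 0.0590). Ankrd37, a small ankyrin repeat protein induced by hypoxia, read 2374 and 2163 in mutant lungs, against 441 and 551 in wild type lungs (3.86-fold higher, 1.95 ± 0.19, limma adjusted p = 0.000342), and kept its call likewise. Adm, adrenomedullin, a vasodilator, read 3034 and 3202 in mutant lungs, against 973 and 1178 in wild type lungs (2.78-fold higher, 1.47 ± 0.19, limma adjusted p = 0.00519). That call was lost without mutant 1b or wild type 1a (highest adjusted p = 0.0573), and another Adm probe set, on type C, gave 0.39 without a call and is the one counted in the list. Of 22 hypoxia genes measured 2 rose, Edn1 and Ankrd37, and the median was 0.07.

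Markers of the cells that make up the alveolus gave no call: none of 10 for alveolar type 2 cells, 10 for alveolar type 1 cells, 16 for endothelium or 29 genes of fluid transport and cell junctions. Their medians were 0.06, -0.28, 0.09 and -0.04. Probe sets not counted in these lists were called lower for the tight junction genes Ocln, at -1.27, and Cxadr, at -0.90. Neither of these calls held through every left-out array. Aqp5, the water channel of type 1 cells, read 7132 and 7916 in mutant lungs, against 5861 and 5493 in wild type lungs (0.40, limma adjusted p = 0.685). Cdh5, the cadherin of endothelial junctions, read 12090 and 12060 in mutant lungs, against 9590 and 8258 in wild type lungs (0.44, limma adjusted p = 0.576). Hopx, a type 1 marker, was close to the threshold at 7130 and 6007 in mutant lungs, against 12740 and 13940 in wild type lungs (-1.02, limma adjusted p = 0.0551), and was called under 4 alternative settings. Marker lists of ciliated, club, T and NK, B, fat, cardiac, skeletal, erythroid and squamous cells held no call. The B cell gene Ighm had a probe set, not the one counted, that read 3364 and 3028 in mutant lungs, against 1347 and 1329 in wild type lungs. It was called at 1.21 (limma adjusted p = 0.00842), but not through every left-out array, and the other Ighm probe sets, from -0.31 to 0.32, were not called. The erythroid gene Hba-a1 varied widely, at 12080 and 4084 in mutant lungs, against 449 and 1341 in wild type lungs (3.04 ± 1.02, limma adjusted p = 0.311). Summed intensity of the Y-linked genes Eif2s3y and Kdm5d was 1079 and 1214 in mutant lungs, against 1300 and 1471 in wild type lungs.

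Other large single differences lay outside the NRF2 target lists. Xaf1, an interferon-induced promoter of apoptosis, read 83 and 118 in mutant lungs, below the filter value, against 6894 and 7756 in wild type lungs (-5.17 ± 0.37, limma adjusted p = 8.08e-05). No other of the 26 measured interferon response genes was called. Rprml, a relative of the p53-induced gene Reprimo, read 3525 and 4033 in mutant lungs, against 275 and 307 in wild type lungs (9.78-fold higher, 3.29 ± 0.33, limma adjusted p = 0.000519). Mgl2, a galactose-binding lectin of macrophages and dendritic cells, read 4537 and 3032 in mutant lungs, against 169 and 628 in wild type lungs (8.50-fold higher, 3.09 ± 0.41, limma adjusted p = 0.00354). All 3 kept their calls without any one array. Akap12, a scaffold of protein kinase A, was 3.59-fold higher at 7450 and 8901 in mutant lungs, against 1863 and 2630 in wild type lungs (1.84 ± 0.27, limma adjusted p = 0.0103), a call that held only without wild type 1b (highest adjusted p = 0.0928), and its second probe set gave 0.65 without a call. Apold1, an endothelial early response gene, read 1260 and 1601 in mutant lungs, against 210 and 385 in wild type lungs (3.88-fold higher, 1.96 ± 0.39, limma adjusted p = 0.0401; highest without an array 0.240). Among the falls, Tmem252 read 352 and 299 in mutant lungs, against 2433 and 2118 in wild type lungs (5.32-fold lower, -2.41 ± 0.20, limma adjusted p = 8.08e-05). Npy, neuropeptide Y, read 87 and 50 in mutant lungs, below the filter value, against 606 and 636 in wild type lungs (-2.27 ± 0.24, limma adjusted p = 0.00206). Tmem252 and Npy kept their calls without any one array.

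Within 20 Mb of Nfe2l2 on chromosome 2, 6 of 299 other probe sets were called (2.01%), for 5 of 174 genes, against 7 of 1432 on the rest of the chromosome (0.489%). The difference between these shares was not tested. Cwc22, a splicing factor 2.18 Mb away, read 318 and 136 in mutant lungs, against 2819 and 2762 in wild type lungs (9.05-fold lower, -3.18 ± 0.37, limma adjusted p = 0.00183). A second Cwc22 probe set was 3.14-fold lower (-1.65, limma adjusted p = 0.00360), while its 2 others gave -0.11 and -0.22 without a call. The difference on the first was as large at 0, 24 and 48 h, at -3.52, -3.71 and -3.91. Fam171b, 8.11 Mb away, read 691 and 441 in mutant lungs, against 1993 and 1878 in wild type lungs (3.03-fold lower, -1.60 ± 0.21, limma adjusted p = 0.00354). Itga4, an integrin chain of leukocytes 3.55 Mb away, read 106 and 167 in mutant lungs, below the filter value, against 940 and 1104 in wild type lungs (-2.13 ± 0.30, limma adjusted p = 0.00426), but its other probe set gave -0.38 without a call. Aplnr, the apelin receptor 9.43 Mb away, was 2.19-fold lower (-1.13 ± 0.16, limma adjusted p = 0.00433), and Ptpmt1, a mitochondrial phosphatase 15.2 Mb away, 1.80-fold higher (0.85 ± 0.18, limma adjusted p = 0.0483). Cwc22 and Fam171b kept their calls without any one array. Itga4 lost its call without mutant 1a or wild type 1b (highest adjusted p = 0.0574), Aplnr without mutant 1a or wild type 1a (0.0536) and Ptpmt1 without each (0.240). How the mutant was made is not in the labels, and for these genes linkage to Nfe2l2 and the mutation itself cannot be told apart.

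**Figure D4:**
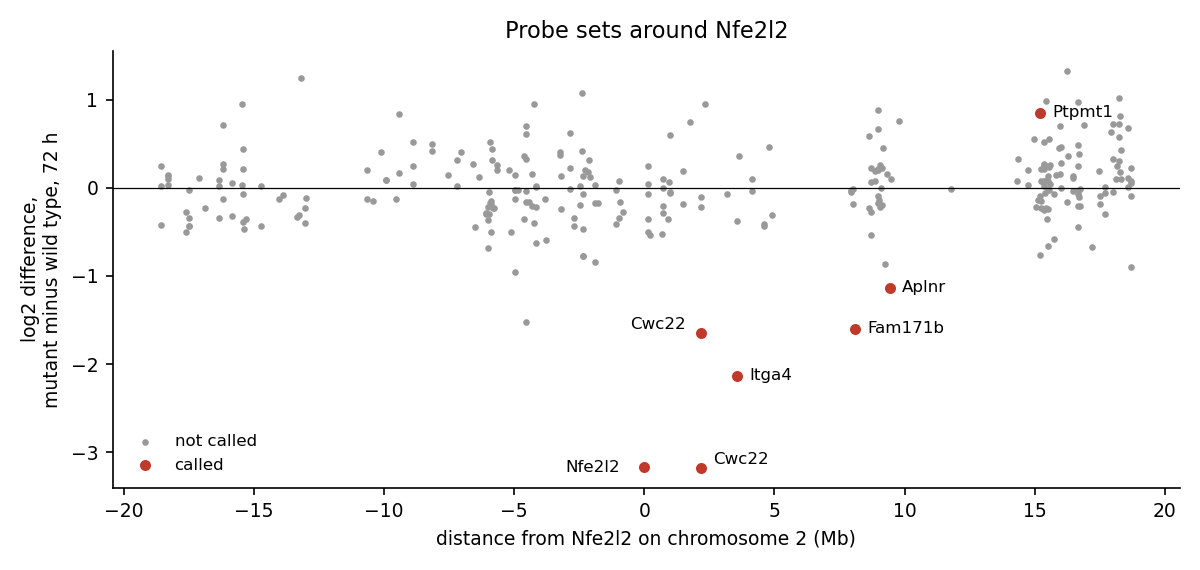
Log2 difference between mutant and wild type lungs at 72 h (vertical axis) of the tested probe sets within 20 Mb of Nfe2l2, by distance from it in Mb (horizontal axis). Red points passed the test: Nfe2l2 at -3.17 and 6 others, of which only Ptpmt1 at 0.85 was higher.

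Most of the probe sets lower at 72 h also had a negative difference at 48 h. Mutant and wild type differed at 101 probe sets at 48 h (0.377%), 42 at 24 h (0.157%) and 738 at 0 h (2.75%). Of the 125 probe sets lower at 72 h, 116 were also negative at 48 h, with a median of -0.87 there against -1.33 at 72 h, and 45 of them were called at 48 h. Of the 95 higher at 72 h, 66 were positive at 48 h, with a median of 0.29 against 1.30 at 72 h, and 7 were called. Over all probe sets 51.3% were negative at 48 h. These times have their own mutant and wild type arrays, but share 1 estimate of the spread.

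The change of the genotype difference with time was tested directly. Compared with 48 h it differed at 9 probe sets (0.0336%; 1847 at an unadjusted p under 0.05), compared with 24 h at 30 (0.112%) and compared with 0 h at 367 (1.37%), the last against the mutant arrays that stand apart. Edn1 on its first probe set moved 2.03 higher against 48 h (limma adjusted p = 0.0103). At 48 h it had read 2238 and 2196 in mutant lungs, against 3072 and 3633 in wild type lungs, and the call was lost without each 72 h array in turn (highest adjusted p = 0.0613). Ankrd37 moved 2.09 higher against 48 h (limma adjusted p = 0.0142), where it had read 442 and 456 in mutant lungs, against 555 and 463 in wild type lungs, and kept this call only without wild type 1b (highest adjusted p = 0.0886). Slc7a11 moved by -2.06 against 24 h (limma adjusted p = 0.0210): its wild type intensities were 124 and 163 at 0 h, 354 and 346 at 24 h, 472 and 465 at 48 h and 1646 and 1642 at 72 h, whereas those of mutant lungs lay between 121 and 329 at all 4 times. This call was lost without each 72 h array in turn (highest adjusted p = 0.104). S100a8 moved by -3.31 against 24 h (limma adjusted p = 0.000309), a call that held without any one 72 h array. At 24 h it was higher in the mutant, at 11890 and 10280, against 4565 on the 1 wild type array of type A at that time, and at 48 h lower, at 1635 and 1561, against 9822 and 9647 in wild type lungs. The neutrophil list followed it, with a median of 0.80 at 24 h, -1.45 at 48 h and -0.82 at 72 h. For Gclc, the differences of -0.64 at 24 h and -0.67 at 48 h were smaller than the -2.17 at 72 h, but the change did not pass the test (limma adjusted p = 0.120 against 24 h and 0.137 against 48 h).

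**Figure D5:**
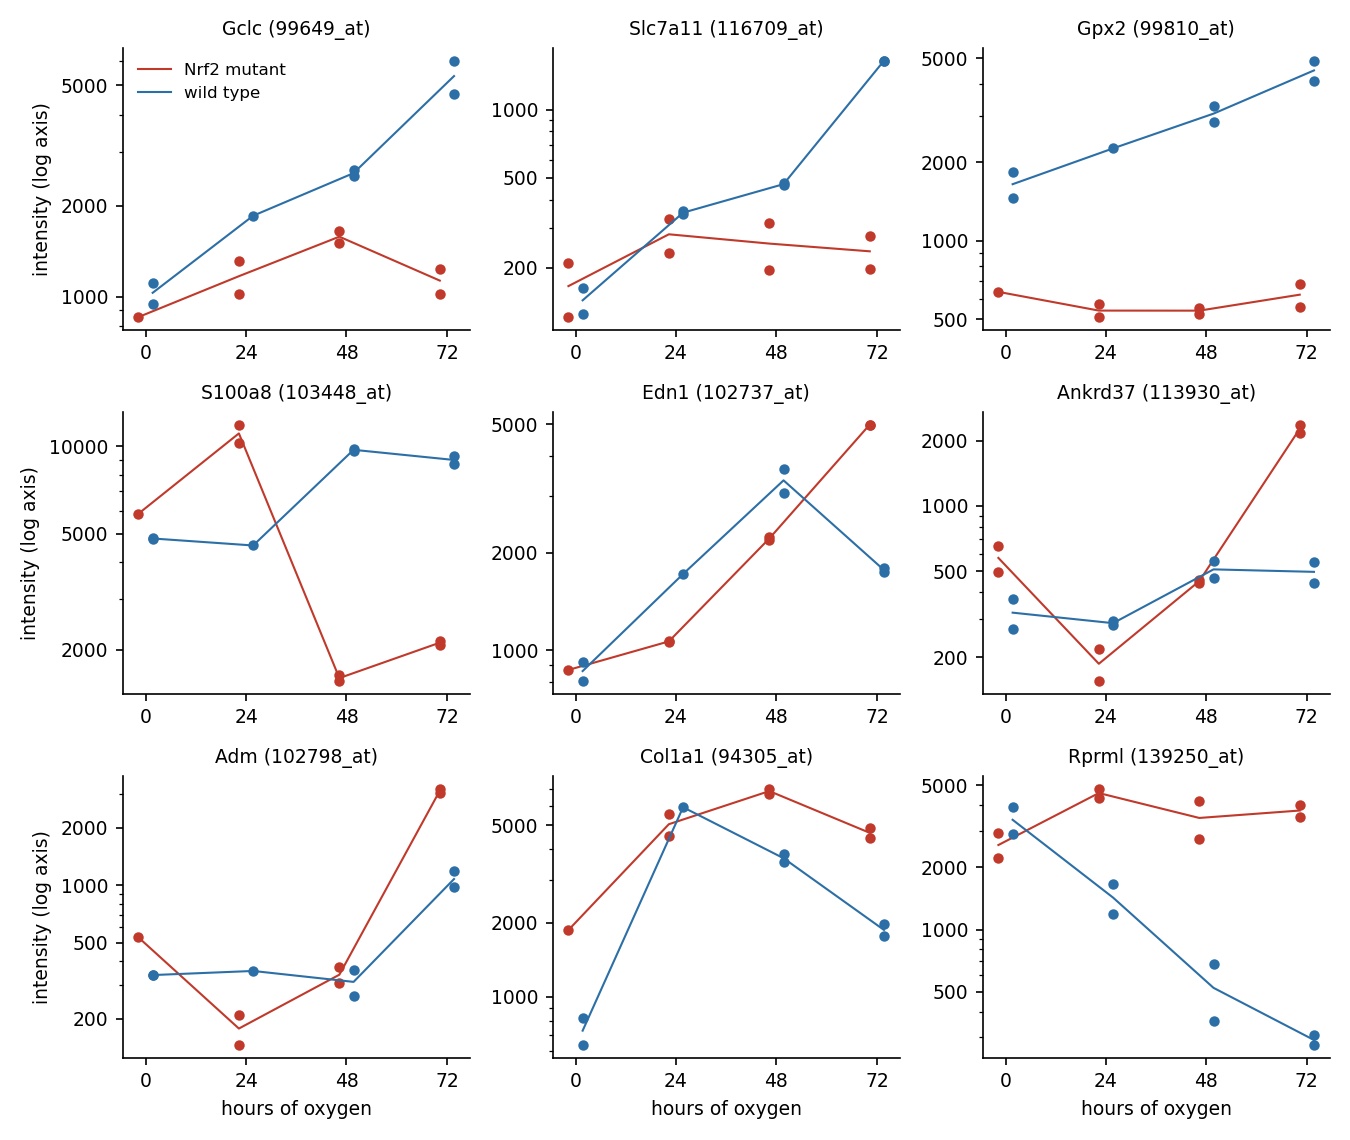
Intensity (log axis) of 9 genes on each array against hours of oxygen, mutant in red and wild type in blue, with lines through the group means. On type A the mutant has 1 array at 0 h, and so has the wild type at 24 h; at 72 h the genotypes are separate for all 9 genes.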

How the data were processed

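Total lung RNA was hybridised to Affymetrix arrays of 3 types. The authors deposited 1 intensity per probe set and array; its program and scaling were not given in the sources used here. Groups come from the sample titles. For each type, log2(intensity + the type's 25th percentile: 78.5 on A, 126 on B, 106 on C) was taken, 66 control probe sets were removed, and a probe set was kept if 2 or more arrays passed the type's 40th percentile. 1 limma fit per type (limma 3.58.1, R 4.3.3) covered all 8 genotype and time groups, with Benjamini-Hochberg adjustment over 26821 probe sets. A fold is 2 to the power of the log2 difference on that scale, which understates changes of dim probe sets. The script was tested on simulated data. Of the probe sets tested, 21856 carried 1 gene symbol in the platform annotation, 546 several and 4419 none, and 21789 matched a RefSeq gene by ID. Members and gene lists were chosen with earlier results of these data known. Named genes were Nfe2l2, a set of NRF2, injury and cell marker genes, the largest called differences with 1 symbol overall and per array type, list members with the smallest p, the largest changes of the genotype difference over time, and called genes within 20 Mb of Nfe2l2. Type A lacks replicate 1a of mutant 0 h and wild type 24 h. The labels give no scan date or batch. Alternatives were another treatment of low values, quantile normalization, other filters, fewer arrays, a replicate block, another variance model, adjustment within a type and leaving out each 72 h array.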

Additional observations from a re-analysis of the deposited data

Results flagged for a closer look

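For 25 named differences the limma test of the change itself found that the gap between mutant and wild type at 72 h was not the gap at an earlier time. Each value below is the log2 genotype difference at 72 h minus that at the earlier time.

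Against 48 h, Ankrd37 moved by 2.09 and Edn1 by 2.03. Against 24 h, genes that moved higher in the mutant were Ang4, an antimicrobial angiogenin, by 2.74, Ankrd37 by 2.36, Adm by 2.25, Ftsj3, a ribosomal RNA processing factor, by 2.19, Edn1 by 2.11 and Col18a1, the collagen that gives endostatin, by 1.94. Adm and Col18a1 lost this call without each 72 h array in turn, as did Ang4 (highest adjusted p = 0.111, 0.138 and 0.104). Edn1 lost it without mutant 1b (0.0521), and Ftsj3 without mutant 1b or wild type 1a (0.0618). For Col18a1 the wild type arrays at 72 h and for Ftsj3 and Ang4 likewise lie below the filter value.

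Among genes expressed in myeloid cells, 5 moved lower against 24 h. S100a8 moved by -3.31, Cd177 by -3.30, S100a9 by -2.94, Clec4d by -2.75 and Il1b by -1.82. At 24 h Cd177 had read 2771 and 2535 in mutant lungs, against 776 and 545 in wild type lungs, and at 72 h 1016 and 1151 in mutant lungs, against 2879 and 3349 in wild type lungs. Tmem252 moved by -2.50, Slc7a11 by -2.06, Fosl2, an AP-1 subunit, by -1.56 and Slc40a1 by -1.50. S100a8, S100a9, Cd177 and Tmem252 kept this call without any one 72 h array. Clec4d, Il1b, Slc7a11 and Slc40a1 lost it without each (highest adjusted p = 0.0984, 0.133, 0.104 and 0.142), and Fosl2 kept it only without mutant 1a (0.111). On type A, which holds S100a8, S100a9, Clec4d, Il1b, Adm, Col18a1 and Edn1, the wild type at 24 h has 1 array.

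Against 0 h, Mgl2 moved by 3.84, Rprml by 3.68, Jph2, a junction protein of muscle, by 3.15 and Tgfb1, the fibrogenic cytokine, by 3.09. Lce3a, a cornified envelope protein, moved by -8.67, Defb4, a beta-defensin, by -6.75, Fam25c by -6.24 and Xaf1 by -5.67. Lce3a, Defb4 and Fam25c are skin-type genes that were bright on the mutant 0 h arrays alone. Lce3a, for example, read 42700 and 52550 in mutant lungs at 0 h, against 36 and 86 in wild type lungs at 0 h, and was below the filter value in both genotypes at 72 h. Tgfb1 lost its call without wild type 1a or wild type 1b (highest adjusted p = 0.0714), and it was read on 1 mutant array at 0 h.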

How the results depend on the processing

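The 220 calls at 72 h became 204 when low values were set to the 25th percentile, 217 under quantile normalization, 186 with no filter, 257 with a filter at the 60th percentile, 231 without the mutant 0 h arrays, 264 with a replicate block, 296 with a trended and robust variance and 251 when adjusted within each type. A fit on the arrays of the groups compared gave 27, which has fewer arrays to estimate the spread, and leaving out a 72 h array 74 to 105. Against 48 h the count of 9 became 26 (60th percentile), 4 (groups compared), 19 (replicate block), 23 (variance), 16 (within type) and 4 to 7 (an array left out). Against 24 h the count of 30 became 66 (60th percentile), 11 (groups compared), 69 (variance), 56 (within type) and 10 to 20 (an array left out). Against 0 h the count of 367 became 564 (60th percentile), 56 (groups compared), 586 (variance) and 124 to 191 (an array left out); it could not be fitted without the mutant 0 h arrays. The cause of these shifts was not tested. No named call changed sign. Of the 74 named calls the block kept 72 (Akr1b8 and Ngp no longer passed, at limma adjusted p = 0.0526 and 0.0517), low values at the percentile 59, no filter 61 and quantile normalization 67. Apold1, Svep1, Ccl8, H2-Ab1, Col3a1, Tgfbi, Actg2, Gsto1, Adh7, Akr1b8, Ngp and Ptpmt1 lost their call both with no filter and with low values at the percentile. Of uncalled genes Hopx, Sod3 and the brightest probe set of Eln passed under 4 settings each (lowest limma adjusted p = 0.00989, 0.0212 and 0.0169, that of Eln with the block, where Sod3 gave 0.0336), C1qc under 3 (0.0249) and Mafg under 1 (0.0373). The uncalled difference of Mt2 ran from -0.306 to 0.013 with an array left out, turning positive without wild type 1b. The numbers 1a and 1b share no stated animal or day (deviations of 1a correlated at 0.365, 0.151 and 0.0385 on types A, B and C). For 63 of the 220 calls a 72 h group lay below the filter value, where signal limits the size.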

Other observations

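Besides the genes above, 4 probe sets of Npr3, the clearance receptor of natriuretic peptides, were lower in mutant lungs; like the others in these paragraphs, it was chosen after its values were seen. On 1 of them Npr3 read 272 and 411 in mutant lungs, against 1190 and 2032 in wild type lungs (-1.98 ± 0.29, limma adjusted p = 0.00983), and on another 525 and 709 in mutant lungs, against 2002 and 2101 in wild type lungs (-1.56 ± 0.20, limma adjusted p = 0.00305), the only one of the 4 to keep its call without any one array. Ctse, the protease cathepsin E, read 307 and 259 in mutant lungs, against 1496 and 959 in wild type lungs (-1.83 ± 0.23, limma adjusted p = 0.00462). Ifitm6, an interferon-induced membrane protein of myeloid cells, read 519 and 438 in mutant lungs, against 2178 and 2021 in wild type lungs (-1.97 ± 0.17, limma adjusted p = 0.000456). Pir, pirin, read 964 and 1056 in mutant lungs, against 2296 and 2234 in wild type lungs (-1.07 ± 0.14, limma adjusted p = 0.00354). Ctse, Ifitm6 and Pir kept their calls without any one array.

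Of the 16 measured endothelial markers none was called (median 0.09) and Aplnr was called lower, but 3 genes outside that list that are known from vessels were called higher. Sox17, an endothelial transcription factor, read 2754 and 2250 in mutant lungs, against 777 and 1049 in wild type lungs (1.39 ± 0.19, limma adjusted p = 0.00705), and was called on 2 of its 3 probe sets. Robo4, an endothelial guidance receptor, read 4550 and 3752 in mutant lungs, against 1788 and 1522 in wild type lungs (1.26 ± 0.21, limma adjusted p = 0.0135). Pdgfb, a growth factor that recruits pericytes, read 7814 and 6020 in mutant lungs, against 3269 and 2830 in wild type lungs (1.14 ± 0.19, limma adjusted p = 0.0115), while its second probe set was not called (1.09, limma adjusted p = 0.0837). None of these 3 held without each array in turn (highest adjusted p = 0.0691, 0.141 and 0.133).

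For 3 of the largest differences the wild type level at 0 h lay closer to the mutant level than at 72 h, which was not tested as a pattern. Xaf1 read 87 and 92 in wild type lungs at 0 h, 10000 and 9207 at 24 h, 3398 and 4491 at 48 h and 6894 and 7756 at 72 h, while no mutant array passed 397. Rprml read 2905 and 3910 in wild type lungs at 0 h, 1662 and 1195 at 24 h, 360 and 682 at 48 h and 275 and 307 at 72 h, while every mutant array read at least 2214. Mgl2 read 3088 and 4207 in wild type lungs at 0 h and 169 and 628 at 72 h, against 1890 and 2330 at 0 h and 4537 and 3032 at 72 h in mutant lungs.

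Across 24, 48 and 72 h, 10 probe sets were called the same way at each time, 8 of them with 1 symbol, for 7 genes: Nfe2l2, Gpx2, Aox3, Ces1f, Ces1g, Cwc22 and Xaf1. All but Xaf1 were called the same way at 0 h as well, where the mutant arrays stand apart with 738 calls. Nfe2l2, Gpx2 and Ces1g were read on type A, with 1 mutant array at 0 h and 1 wild type array at 24 h.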
